A study of Mus musculus with 19 samples.

Results

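Astrocytes and microglia sorted from mice with experimental autoimmune encephalomyelitis (EAE), the mouse model of multiple sclerosis, were compared with each other gene by gene. The comparison took every library labelled astrocyte (8) and every library labelled microglia (7), which is 15 of the 19 libraries in the series. It took the 2909 genes, of 6514 listed for either cell type, that had a row in both deposited tables when symbols were matched without regard to letter case. All mice were wild type C57Bl/6 females at postnatal day 85 in which disease had been induced with MOG35-55, a myelin peptide, in CFA, the adjuvant. Each had also been given 1 of 2 lentiviruses into the brain: pLenti-Gfap-GFP-shScramble, a control hairpin (shScrmbl, 4 astrocyte and 4 microglia libraries), or pLenti-Gfap-GFP-shXbp1, a hairpin against Xbp1 (4 astrocyte and 3 microglia libraries). The Gfap promoter of these viruses works in astrocytes, so microglia were not their intended target. Every group therefore carried both a virus and the disease, and no library free of either was used here. Each library was made from cells of 1 nervous system by counting the 3′ ends of transcripts, and the labels do not name the antibodies used for the sort. Whether equally numbered astrocyte and microglia libraries share a mouse is not stated.

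Astrocytes are the glia that wrap synapses and vessels. They take up glutamate and potassium, move water, and supply lactate, cholesterol and lipoproteins to neighbouring cells. Microglia are the resident macrophages of the nervous system. They survey tissue through purine and fractalkine receptors, engulf debris through Fc, complement and TREM2 receptors, and present antigen on MHC class II when inflamed. In EAE both respond to infiltrating T cells and monocytes, and each signals to the other through cytokines, complement and lipoproteins.

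The astrocyte libraries held 32842 to 302003 counts and the microglia libraries 10039 to 122002. Levels below are counts in shared genes per 1000000 (CPM), scaled by edgeR's trimmed mean of M-values (TMM) over the 15 libraries. A log2 difference is astrocyte minus microglia, with its standard error (SE), from edgeR's quasi-likelihood test with virus as covariate. A gene was called where the Benjamini-Hochberg adjusted p over the 2909 genes was under 0.05. For each gene, levels are given as the lowest, the median and the highest library. The authors deposited each cell type in a table of its own, and these tables kept different genes, so cell type and table cannot be told apart. Nor can more cells of a type in a sort be told apart from more RNA per cell. The p-values measure the spread between libraries.

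Of the 15 libraries, 1 stood apart from its cell type on the first principal component of log2 CPM, which held 35.2% of the variance. On it the microglia libraries lay between 24.7 and 34.4. Astrocyte shScrmbl replicate 2 lay at -1.47, while the other astrocyte libraries lay between -34.1 and -21.2. It was also the deepest library and, among astrocyte libraries, the richest in counts from microglia markers (1.23%, against 0.310% to 0.592% in the others). Without it, calls went from 796 to 901, and differences of named genes that move by over 1.5-fold without it are given both ways. The second component held 13.3% of the variance. On it microglia shXbp1 replicates 1 and 2 lay at 49.4 and 19.4, and the other libraries between -18.3 and 5.54. Microglia shXbp1 replicate 1 was also the shallowest library (10039 counts), with 68.7% of the tested genes above 0. Without microglia shXbp1 replicate 1 there were 744 calls.

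In all, 796 genes were called. Of the genes tested, 12.4% (361) were higher in the astrocyte libraries and 15% (435) were higher in the microglia libraries. At a difference of at least 4-fold there were 60 and 117 genes. Every astrocyte library lay above every microglia library for 4.13% of genes (120), and every microglia library above every astrocyte library for 3.37% (98). The median log2 difference over all genes was 0.04. Calls were shared widely between methods and libraries: 703 were made by edgeR, DESeq2 and limma alike, 547 held in each of 15 fits that left out 1 library, and 789 had the same direction in shScrmbl and in shXbp1 libraries. The split between directions depended on scaling. With plain table totals in place of TMM factors the median of all genes moved to -0.31, and the called genes were 194 higher in astrocyte and 615 higher in microglia libraries.

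**Figure D1:**
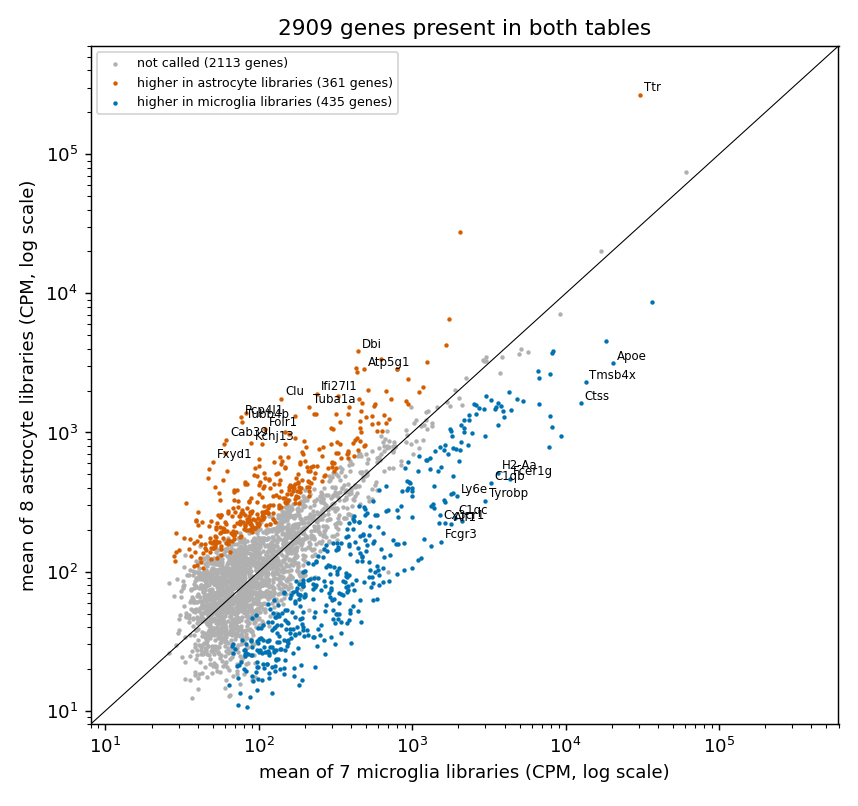
Mean CPM of each of the 2909 genes in the 7 microglia libraries (x axis, log scale) against the 8 astrocyte libraries (y axis, log scale), with the genes of smallest p labelled. The 361 orange genes above the diagonal were called higher in astrocyte libraries and the 435 blue genes below it higher in microglia libraries; Ttr lies far above the rest at 266511 CPM in astrocyte libraries.

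The labels were checked against marker genes first. The microglia libraries carried the defining genes of microglia throughout. All 24 microglia markers had rows in both tables. Of the 24, 23 were called higher in microglia libraries (15% over all genes), and the median log2 difference was -2.28 (0.04 over all genes). For 15 of the 24 every microglia library lay above every astrocyte library, against 3.37% of all genes. Sall1, a transcription factor of microglial identity, was the member not called (-0.81 ± 0.54, adjusted p = 0.293). Tmem119, a surface protein that separates microglia from infiltrating macrophages, stood at 38.3, 87.6 and 134 CPM in astrocyte libraries and at 149, 393 and 707 CPM in microglia libraries. The groups did not overlap (-2.23 ± 0.33, adjusted p = 5.46e-09). P2ry12, the purine receptor that guides microglial processes, was at 0, 57.7 and 186 CPM against 208, 480 and 982 CPM, again without overlap. Its difference was -2.74 ± 0.42 and -3.74 without astrocyte shScrmbl replicate 2, where Sall1 gave -1.52 (0.0671).

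The astrocyte libraries did not show the defining genes of astrocytes to the same degree. Gfap has no row in either table. Of 30 astrocyte markers, 9 had rows in both tables and 15 in the astrocyte table alone. The latter were low: Slc1a2, the main glutamate transporter, had 126 counts over the 8 libraries, Aqp4, the water channel, had 60, and S100b had 187. Those in both tables did not move together. Clu, Ndrg2, Sparcl1 and Aldoc were called higher in astrocyte libraries, while Apoe and Cst3 were called higher in microglia libraries. The remaining 3 were not called: Slc1a3, the second glial glutamate transporter (-0.43 ± 0.37, adjusted p = 0.432), Glul, which makes glutamine (0.29 ± 0.31, 0.549), and Ttyh1, a chloride channel (0.21 ± 0.24, 0.577). Their groups overlapped.

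What set the astrocyte libraries apart was RNA of the choroid plexus, the epithelium that makes cerebrospinal fluid. Ttr, the thyroid hormone carrier secreted by that epithelium, took 14.2% to 26.7% of all counts in the astrocyte libraries and 1.69% to 6.25% in the microglia libraries. Its level was 165968, 275166 and 359649 CPM in astrocyte libraries and 19017, 24733 and 55620 CPM in microglia libraries (log2 difference 3.12 ± 0.27, adjusted p = 6.74e-21). The groups lay far apart in both viruses. All 4 choroid plexus and ependyma markers in both tables were called higher in astrocyte libraries without overlap, with a median of 3.17. Of all genes, 12.4% were called in this direction and 4.13% did not overlap in it. A further 11 of the 19 markers had rows only in the astrocyte table, as did 3452 of the 6514 genes in either table. Among those, Prlr had 798 counts, Clic6 had 502, Calml4 had 424, Kl had 280 and the choroid transcription factor Otx2 had 143. Oligodendrocyte markers moved the same way: 5 of 5 were called higher in astrocyte libraries (12.4% over all genes), with a median of 2.94. The libraries are called astrocyte libraries below because that is their label, and the part of choroid plexus and oligodendrocyte RNA in any single result was not tested.

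Summed per library, choroid plexus and ependyma markers took 17.98% to 32.2% of shared-gene counts in astrocyte libraries and 1.72% to 6.40% in microglia libraries. Nearly all of these counts were Ttr. It gave 13456 of 13591 in astrocyte shScrmbl replicate 1 and 1119 of 1134 in microglia shScrmbl replicate 1. Oligodendrocyte markers took 2.39% to 4.70% against 0.280% to 0.773%, and Enpp2, which choroid plexus also expresses, gave the most counts of that list. Microglia markers took 0.310% to 1.23% against 3.24% to 4.996%. None of these ranges overlapped. The 9 astrocyte markers in both tables took 0.765% to 1.32% in astrocyte libraries and 1.87% to 3.58% in microglia libraries, where Apoe gave the most counts of the list. Monocyte and macrophage markers (0.0740% to 0.864% against 0.644% to 4.68%) overlapped. In the microglia libraries 9 of the 11 monocyte and macrophage markers in both tables were called higher, against 15% of all genes. A further 6 had rows only in the microglia table, as did 153 of the 6514 genes in either table. Among them were F13a1 (39 counts), Ccr2 (24 counts) and Ly6c2 (17 counts). Vcan (33 counts) had a row only in the astrocyte table. Lymphocyte markers were higher as well, at 0.00710% to 0.0360% against 0.0604% to 0.262%. Of 4 in both tables, 3 were called (Ccl5, Cd3d and Il7r), against 15% of all genes. Nkg7 (29 counts), Cd79b (18 counts) and Cd2 (17 counts) had rows only in the microglia table, and Lck (20 counts) only in the astrocyte table. The call of Cd3d was lost without microglia shScrmbl replicate 3 (adjusted p = 0.0719) and that of Il7r without any 1 of 7 libraries (up to 0.225). Of 3 neutrophil markers in both tables, Csf3r was called higher in microglia libraries (-1.33 ± 0.34, 0.00107). Its difference was -2.17 without astrocyte shScrmbl replicate 2. Ngp, S100a9, Camp and Mmp8 had rows only in the microglia table. The neuron (2), endothelial and mural (2) and erythroid and mast cell (4) markers in both tables gave no call. A further 5 neuron markers, led by Meg3 (185 counts), had rows only in the astrocyte table, as did 3452 of the 6514 genes. So did 3 endothelial and mural markers, led by Pltp (96 counts). Prss34 (82 counts), Cma1 (35 counts) and Mcpt8 (16 counts) had rows only in the microglia table.

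**Figure D2:**
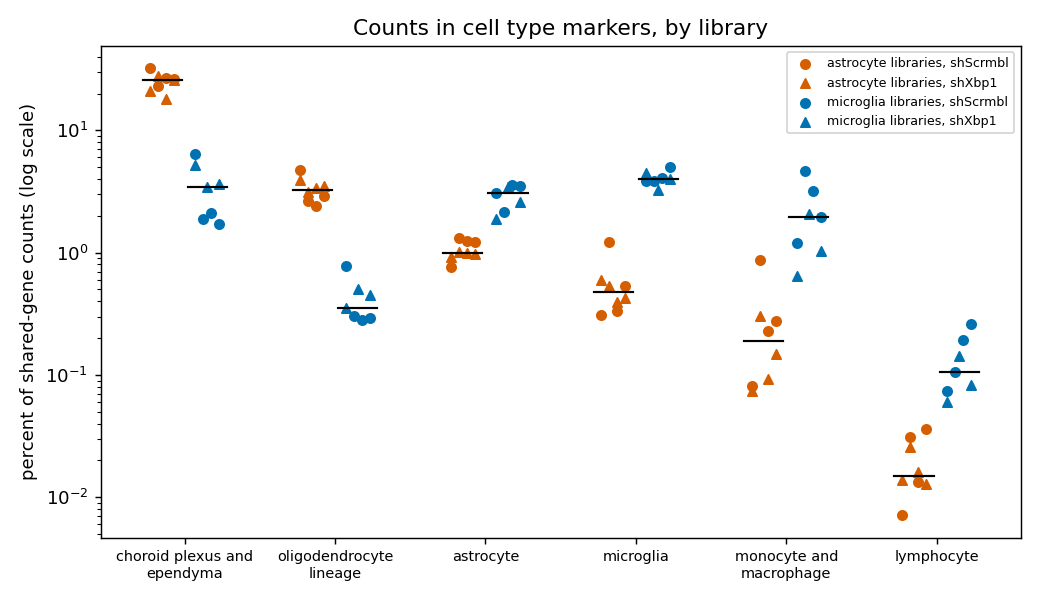
Percent of shared-gene counts (y axis, log scale) in the markers of 6 cell types, 1 point per library, with the median of each group as a bar. Choroid plexus and oligodendrocyte markers lie higher in every astrocyte library (orange), and microglia markers higher in every microglia library (blue). Nearly all choroid plexus and ependyma counts are Ttr.

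The 12 genes higher in astrocyte libraries with the smallest p were Pcp4l1, Clu, Ttr, Tubb4b, Dbi, Cab39l, Folr1, Ifi27l1, Tuba1a, Atp5g1, Kcnj13 and Fxyd1. In all 12 the lowest astrocyte library lay above the highest microglia library, against 4.13% of all genes. The 12 were chosen by p on the same libraries, so this separation is no separate result. Pcp4l1 (GRCm38 chr1:171173262-171196268, minus strand) stood at 691, 1273 and 1764 CPM in astrocyte libraries and at 0, 64.3 and 168 CPM in microglia libraries (4.21 ± 0.36, adjusted p = 6.57e-21). This was the largest log2 difference in that direction among the called genes. Clu (chr14:65968483-65981547), clusterin, a secreted chaperone and lipoprotein made by astrocytes and by choroid epithelium, was at 1204, 1583 and 2326 CPM against 56.0, 131 and 298 CPM (3.61 ± 0.31, 6.74e-21). Dbi, which binds acyl-CoA and gives rise to a peptide that acts at GABA receptors, was at 2365, 3799 and 5413 CPM against 193, 455 and 746 CPM (3.09 ± 0.28, 5.52e-20). All 3 were raised in each virus: Clu by 3.52 in shScrmbl and 3.90 in shXbp1 libraries, Dbi by 2.77 and 3.67, and Pcp4l1 by 4.37 and 4.07.

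Several of the 12 serve epithelial transport. Folr1, the folate receptor that loads folate into cerebrospinal fluid, was at 718, 1099 and 1363 CPM in astrocyte libraries against 0, 83.9 and 280 CPM in microglia libraries (3.45 ± 0.34, adjusted p = 4.50e-17). Kcnj13, a potassium channel of choroid epithelium (chr1:87386363-87394729, minus strand), was at 389, 826 and 1310 CPM against 43.6, 66.1 and 168 CPM (3.22 ± 0.35, 4.76e-15). Fxyd1, a regulator of the sodium pump, was at 347, 584 and 843 CPM against 0, 47.9 and 149 CPM (3.59 ± 0.39, 5.58e-15). The tubulins Tubb4b (3.88 ± 0.35) and Tuba1a (2.92 ± 0.30), which share near-identical copies, were also among them. Enpp2, which makes lysophosphatidic acid and is listed here with oligodendrocyte markers, stood at 16332, 27160 and 46694 CPM against 567, 1438 and 5269 CPM (3.76 ± 0.34, 1.04e-11). 1500015O10Rik, an augurin precursor of choroid plexus, was at 710, 947 and 1273 CPM against 43.6, 71.9 and 497 CPM (2.91 ± 0.34, 1.46e-13). Neither overlapped between groups.

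Other genes listed for astrocytes differed by various amounts. Ndrg2, a differentiation gene of astrocytes, was at 393, 534 and 797 CPM in astrocyte libraries against 0, 49.7 and 137 CPM in microglia libraries (3.21 ± 0.38, adjusted p = 8.99e-13) and did not overlap. Sparcl1, which promotes synapse formation, ranged widely, from 117 over 490 to 1061 CPM against 0, 94.4 and 398 CPM (2.09 ± 0.65, 0.0270). Its groups overlapped, and the call was lost without any 1 of 4 microglia libraries (shScrmbl replicate 3 and shXbp1 replicates 1, 2 and 3; adjusted p = 0.0543 to 0.0610). Aldoc, the glycolytic aldolase of astrocytes, was at 150, 262 and 537 CPM against 45.7, 112 and 386 CPM (1.40 ± 0.39, 0.00268). Of the 26 genes of glutamate, ion and water homeostasis, 7 had rows in both tables. Of the 7, 3 were called, all higher in astrocyte libraries (12.4% over all genes): Fxyd1, Ptgds and Ldhb. A further 14 had rows only in the astrocyte table (3452 of 6514 over all genes in either table). These included Car2 (481 counts), Gja1 (53 counts) and Kcnj10 (50 counts). The median of the 7 was 0.29, and it turned to -0.06 with plain table totals.

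Mbp, a main protein of myelin, was higher in astrocyte libraries as well. It stood at 300, 895 and 3521 CPM in astrocyte libraries and 64.3, 174 and 228 CPM in microglia libraries (2.78 ± 0.49, adjusted p = 0.000190). Apod, a lipocalin of mature oligodendrocytes and meningeal cells, was at 324, 755 and 3890 CPM against 0, 59.9 and 179 CPM (4.14 ± 0.54, 2.14e-06). Neither overlapped between groups. Ptgds, prostaglandin D synthase of meninges, choroid plexus and oligodendrocytes, was at 1351, 2406 and 4370 CPM against 131, 448 and 836 CPM (2.69 ± 0.30, 8.69e-13). Its difference was 3.47 in shScrmbl and 1.89 in shXbp1 libraries. Trf, transferrin, differed least of this group (0.86 ± 0.25, 0.00411), and its groups overlapped.

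The 12 genes higher in microglia libraries with the smallest p were Tyrobp, Fcer1g, C1qb, Aif1, Fcgr3, C1qc, Apoe, Tmsb4x, H2-Aa, Cx3cr1, Ctss and Ly6e. Of the 12, only H2-Aa overlapped between groups, while 3.37% of all genes were free of overlap in this direction. These 12 too were chosen by p on the same libraries. Tyrobp (chr7:30413760-30417585), also called DAP12, is the signalling partner of TREM2. It stood at 163, 251 and 755 CPM in astrocyte libraries and at 1399, 3134 and 5234 CPM in microglia libraries (-3.14 ± 0.26, adjusted p = 6.57e-21; -3.45 without astrocyte shScrmbl replicate 2). Fcer1g, the gamma chain that carries Fc receptor signals, was at 191, 327 and 1342 CPM against 2350, 3975 and 6150 CPM (-3.09 ± 0.26, 6.74e-21; -3.52 without it). Fcgr3, the low-affinity IgG receptor, was at 35.4, 128 and 488 CPM against 1287, 1491 and 1963 CPM (-2.94 ± 0.28, 1.18e-18; -3.51 without it). In each of these 3 genes the highest astrocyte level was that of astrocyte shScrmbl replicate 2. Cx3cr1, the receptor for the neuronal chemokine fractalkine, was at 106, 209 and 419 CPM against 1222, 1312 and 2125 CPM (-2.62 ± 0.26, 1.05e-16); every microglia library was at least 1222 CPM.

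Ctss, cathepsin S, trims the invariant chain during MHC class II loading. It stood at 737, 1181 and 4696 CPM in astrocyte libraries and 6557, 11445 and 18871 CPM in microglia libraries (-2.84 ± 0.27, adjusted p = 9.43e-16; -3.29 without astrocyte shScrmbl replicate 2). C1qc, a chain of the first complement component, was at 92.6, 221 and 591 CPM against 964, 1881 and 3271 CPM (-2.78 ± 0.27, 2.73e-18). Both were free of overlap. PU.1, the factor that sets up the macrophage lineage, binds purine-rich sites, and its core was searched as GAGGAAGT on both strands in RefSeq promoters of GRCm38.p6, which run from 250 bases before to 50 after a gene's start. The first listed promoter was used where a gene had several. These letters occurred in 9.04% of the promoters of genes higher in microglia libraries (30 of 332 matched), in 1.09% of those higher in astrocyte libraries (3 of 274), in 4.57% of those of all genes tested that matched (103 of 2256), and in 3.28% of all 27025. TAATCC, a core bound by the choroid factor OTX2, occurred in 4.82%, 7.30%, 5.85% and 7.16% of the same sets. Ctss (chr3:95526536-95526835, plus strand) and C1qc (chr4:136892865-136893164, minus strand) are shown because they were the 2 with the PU.1 letters among the promoters of 12 leading microglia-high genes with a sequence, with the match in capitals as its reverse complement. Kcnj13 (chr1:87394680-87394979, minus strand) and Pcp4l1 (chr1:171196219-171196518, minus strand) are shown as leading astrocyte-high genes, where neither motif was found. A match describes letters and not binding.
Ctss: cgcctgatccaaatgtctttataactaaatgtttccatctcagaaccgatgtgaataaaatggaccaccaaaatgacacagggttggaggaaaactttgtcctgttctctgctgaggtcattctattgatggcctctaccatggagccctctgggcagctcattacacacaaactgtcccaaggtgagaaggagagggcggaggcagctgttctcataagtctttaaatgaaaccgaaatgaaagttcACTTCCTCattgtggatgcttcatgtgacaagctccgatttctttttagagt
C1qc: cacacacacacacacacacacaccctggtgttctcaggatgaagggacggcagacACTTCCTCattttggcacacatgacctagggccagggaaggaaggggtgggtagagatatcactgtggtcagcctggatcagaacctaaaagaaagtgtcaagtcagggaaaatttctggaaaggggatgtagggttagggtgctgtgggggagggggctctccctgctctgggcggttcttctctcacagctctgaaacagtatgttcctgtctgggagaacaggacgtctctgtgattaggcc
Kcnj13: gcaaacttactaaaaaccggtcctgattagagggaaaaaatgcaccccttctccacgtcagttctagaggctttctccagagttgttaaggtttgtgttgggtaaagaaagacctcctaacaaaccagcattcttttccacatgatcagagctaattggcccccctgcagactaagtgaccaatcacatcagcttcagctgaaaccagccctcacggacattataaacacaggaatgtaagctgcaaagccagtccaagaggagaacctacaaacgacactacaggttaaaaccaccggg
Pcp4l1: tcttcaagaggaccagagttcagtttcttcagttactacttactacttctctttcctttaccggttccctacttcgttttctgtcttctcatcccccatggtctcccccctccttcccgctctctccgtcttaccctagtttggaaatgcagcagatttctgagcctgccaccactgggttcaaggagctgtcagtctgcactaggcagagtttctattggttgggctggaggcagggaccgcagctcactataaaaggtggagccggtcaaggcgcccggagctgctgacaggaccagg

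**Figure D3:**
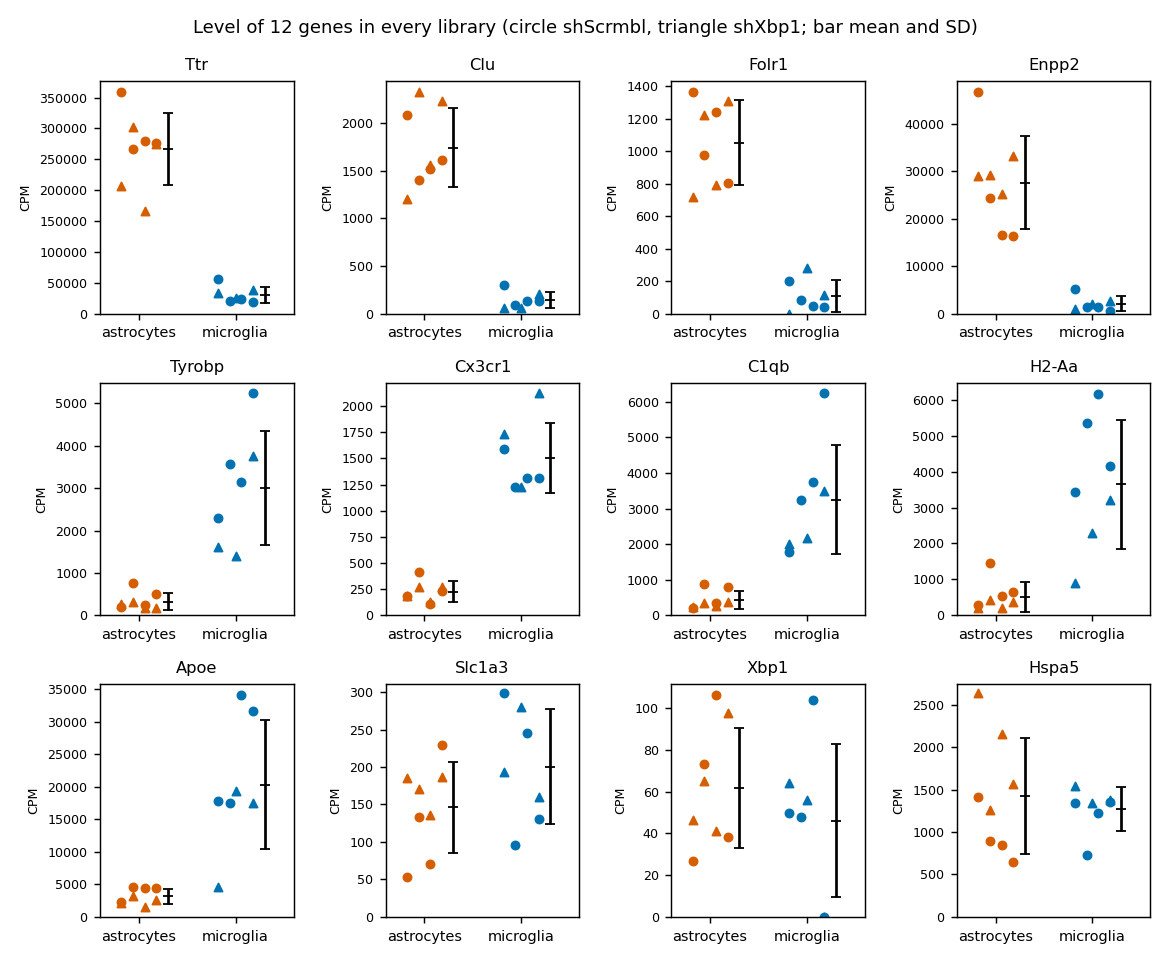
CPM of 12 genes (y axes, linear, each with its own scale) in every astrocyte (orange) and microglia (blue) library, circles for shScrmbl and triangles for shXbp1, with mean and SD. Ttr, Clu, Folr1 and Enpp2 are higher in every astrocyte library, Tyrobp, Cx3cr1, C1qb and Apoe in every microglia library, H2-Aa overlaps in 1 microglia library, and Slc1a3, Xbp1 and Hspa5 overlap throughout.

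Complement, the cascade that tags debris and synapses for uptake, was higher in microglia libraries in both its recognition and its receptor genes. Of 11 complement genes in both tables, 10 were called higher in microglia libraries, against 15% of all genes, and none in astrocyte libraries (median -2.10). The C1q chains C1qa, C1qb and C1qc differed by -2.42, -2.85 and -2.78. C3, the central component and a gene also used as a mark of reactive astrocytes, stood at 0, 79.3 and 134 CPM in astrocyte libraries and 99.4, 280 and 611 CPM in microglia libraries (-1.84 ± 0.38, adjusted p = 3.23e-05). Its receptor C3ar1 differed in the same direction (-2.66 ± 0.38, 6.00e-09; -3.45 without astrocyte shScrmbl replicate 2), and both C3 and C3ar1 overlapped. Itgam and Itgb2, the chains of complement receptor 3, differed by -1.16 and -2.26, the latter by -2.86 without astrocyte shScrmbl replicate 2. C4b was not called (-0.10 ± 0.41, 0.900). Cd59a, which blocks the membrane attack complex, had a row only in the astrocyte table (173 counts in 8 of 8 libraries).

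Of 21 Fc and surface sensing receptors, 18 were called higher in microglia libraries, against 15% of all genes, and none in astrocyte libraries (median -1.95). Trem2, the lipid receptor that signals through TYROBP, was at 0, 45.7 and 199 CPM in astrocyte libraries and 168, 614 and 916 CPM in microglia libraries (-2.78 ± 0.34, adjusted p = 4.97e-11; -3.54 without astrocyte shScrmbl replicate 2). That library was the only astrocyte library inside the microglia range. Cd14, the co-receptor for lipopolysaccharide, was at 23.2, 115 and 384 CPM against 547, 836 and 2490 CPM (-2.93 ± 0.52, 0.000520), and Clec7a, a beta-glucan receptor, at 0, 47.6 and 302 CPM against 321, 457 and 995 CPM (-2.43 ± 0.45, 0.000233). Tlr2 and Fcgr1 differed by -2.57 and -2.49. Without astrocyte shScrmbl replicate 2 Clec7a gave -3.21 and Tlr2 -3.51. Cd14, Clec7a, Tlr2 and Fcgr1 did not overlap between groups.

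Antigen presentation on MHC class II, by which microglia meet T cells, differed in nearly all its genes. Of 11 genes in both tables, 10 were called higher in microglia libraries, against 15% of all genes (median -2.20). Of the 11, 1 did not overlap, against 3.37% of all genes in this direction. H2-Aa, the class II alpha chain, was at 191, 385 and 1441 CPM in astrocyte libraries and 900, 3430 and 6174 CPM in microglia libraries (-2.72 ± 0.26, adjusted p = 2.34e-17; -3.06 without astrocyte shScrmbl replicate 2). H2-Ab1 differed by -2.49 ± 0.28, H2-Eb1 by -2.20 ± 0.30 and the peptide exchanger H2-DMa by -2.81 ± 0.32. Cd74, the invariant chain, was at 0, 38.0 and 142 CPM against 129, 407 and 547 CPM (-2.57 ± 0.37, 2.00e-09; -3.17 without astrocyte shScrmbl replicate 2). Cd274, the inhibitory ligand PD-L1, was not called with all libraries (-0.99 ± 0.45, 0.0991) and was called without astrocyte shScrmbl replicate 2 (-2.23, 0.000614). MHC class I genes were more mixed: 9 of 16 were called higher in microglia libraries and 1 in astrocyte libraries (median -0.91), against 15% and 12.4% of all genes. B2m, the light chain, was at 259, 758 and 3297 CPM against 3749, 8947 and 11515 CPM (-2.79 ± 0.28, 1.62e-12), while H2-D1 and H2-K1 differed by -1.85 and -1.66. The 1 gene higher in astrocyte libraries was the chaperone Canx (0.79 ± 0.30, 0.0359), a call lost without any 1 of 5 libraries (0.0706 to 0.149): astrocyte shScrmbl 1 and shXbp1 1 and microglia shXbp1 1, 2 and 3.

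Chemokines and cytokines that recruit leukocytes were higher in microglia libraries in 16 of 17 cases, against 15% of all genes (median -2.15). The call of Ccl2 was lost without any 1 of 8 libraries (adjusted p up to 0.230), and its sign changed in shXbp1 libraries alone. Ccl6 (-2.60, and -3.64 without astrocyte shScrmbl replicate 2) lost its call without microglia shScrmbl replicate 2 (0.0545). Il1b, interleukin 1 beta, was at 53.5, 92.9 and 393 CPM in astrocyte libraries and 199, 1198 and 2216 CPM in microglia libraries (-2.65 ± 0.55, adjusted p = 0.00227). Ccl4 was at 27.3, 82.9 and 311 CPM against 336, 707 and 2924 CPM (-3.02 ± 0.58, 0.00121), with -3.63 without astrocyte shScrmbl replicate 2 and -2.32 without microglia shXbp1 replicate 3. Tnf was at 0, 15.9 and 121 CPM against 95.9, 224 and 321 CPM (-2.15 ± 0.46, 0.000205), and its difference was -3.62 without astrocyte shScrmbl replicate 2. Cxcl10, which draws T cells, also differed in this direction (-1.51 ± 0.40, 0.00152). The member not called was Csf1, the growth factor on which microglia depend (0.67 ± 0.50, 0.366). Tgfb2 (121 counts), Il33 (43 counts) and Il18 (19 counts) had rows only in the astrocyte table, and Ccl8, Il12b, Ccl7 and Osm only in the microglia table.

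Genes of the disease-associated microglia state, which includes lipid handling and lysosomal genes, were called higher in microglia libraries in 20 of 24 cases (median -2.29). The share over all genes was 15%. Apoe, the lipoprotein of astrocytes in healthy brain, was at 1488, 2947 and 4514 CPM in astrocyte libraries and 4564, 17844 and 34098 CPM in microglia libraries (-2.62 ± 0.25, adjusted p = 1.25e-17). The highest astrocyte library lay just under the lowest microglia library. Spp1, osteopontin, was at 0, 107 and 760 CPM against 1221, 1622 and 3954 CPM (-2.84 ± 0.56, 0.00146). Axl, a receptor for dying cells, was at 0, 25.6 and 92.6 CPM against 43.6, 149 and 264 CPM (-1.95 ± 0.44, 0.000134). The members not called were Fth1 (-0.54 ± 0.24, 0.0887), Timp2, Cd63 and Csf1. Of 31 lysosomal proteases and hydrolases, 21 were called higher in microglia libraries, against 15% of all genes, and none in astrocyte libraries (median -1.34). Ctsd, the aspartyl protease, was at 2582, 4352 and 8411 CPM against 8614, 18987 and 26956 CPM (-1.91 ± 0.25, 2.50e-11) and did not overlap. Ctsb differed by -2.39 ± 0.31, Grn by -2.22 ± 0.25 and Psap by -0.999 ± 0.24.

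Of the genes listed here for monocytes and macrophages, Lyz2, lysozyme, stood at 116, 442 and 3625 CPM in astrocyte libraries and 1093, 6155 and 19341 CPM in microglia libraries (-3.19 ± 0.62, adjusted p = 0.00148). Lyz1, whose sequence is close enough to Lyz2 that reads may be split between them, gave -3.18 ± 0.63 (0.00152). In each the only astrocyte library inside the microglia range was shScrmbl replicate 2, and without it Lyz2 gave -3.95 and Lyz1 -3.86. Saa3, an acute-phase protein, differed by -2.81 ± 0.33 and Cybb, a subunit of the phagocyte oxidase, by -2.05 ± 0.39 (-2.82 without astrocyte shScrmbl replicate 2). Ifitm3 was not called (-0.29 ± 0.34, 0.591).

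Of 12 myeloid transcription factors with rows in both, 5 were called higher in microglia libraries, against 15% of all genes, and none in astrocyte libraries (median -0.95). Mitf (108 counts) and Bhlhe41 (21 counts) had rows only in the astrocyte table, and Irf5 (21 counts) and Nr4a1 (16 counts) only in the microglia table. Irf8, which microglia need for development, was at 0, 33.8 and 99.3 CPM in astrocyte libraries and 56.0, 179 and 240 CPM in microglia libraries (-1.75 ± 0.41, adjusted p = 0.000266). Mef2c was at 0, 114 and 302 CPM against 0, 359 and 731 CPM (-1.40 ± 0.38, 0.00340). Both overlapped. Without astrocyte shScrmbl replicate 2 Irf8 gave -2.48, Mef2c -2.02 and Fli1 -2.22. The call of Fli1 (-1.45 ± 0.58, 0.0495) was lost without any 1 of 11 libraries (up to 0.320). The list had 8 calls, all higher in microglia libraries, without astrocyte shScrmbl replicate 2. Of 24 factors of astrocytes and neural cells, 11 had rows only in the astrocyte table, among them Nfib (216 counts), Nfia (167 counts) and Sox9 (96 counts). Over all genes in either table, 3452 of 6514 had a row there alone.

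Of 32 genes used as marks of reactive astrocytes, only the 8 with rows in both tables could be tested. A member with a row in the astrocyte table alone could not be called, and 19 were in neither table. Of the 8, 6 were called higher in microglia libraries, against 15% of all genes, and none in astrocyte libraries (median -1.68). The 6 were Srgn, Gbp2, H2-D1, C3, Cxcl10 and Cd44. Gbp2, an interferon-induced GTPase, was at 0, 36.9 and 125 CPM in astrocyte libraries and 99.4, 324 and 491 CPM in microglia libraries (-1.97 ± 0.39, adjusted p = 1.64e-05). Each of these 6 is also expressed by immune cells. Of the rest of the list, Tm4sf1 (90 counts), Serpina3n (59 counts), Serping1 (41 counts) and Cp (35 counts) had rows only in the astrocyte table. Of 21 interferon response genes, 7 (33.3%, against 15% of all genes) were called higher in microglia libraries and none in astrocyte libraries. Their median was -0.56, with -0.82 in shScrmbl and -0.23 in shXbp1 libraries. Irf1 (-1.60 ± 0.41, adjusted p = 0.000896) and Lgals3bp (-1.39 ± 0.28, 1.53e-05) were among the 7.

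Pairs of ligand and receptor by which astrocytes and microglia signal to each other could be read on both sides only in part. Of 60 such genes 29 had rows in both tables (median -1.84). Of the 29, 21 were called higher in microglia libraries (15% over all genes) and 1, Clu, in astrocyte libraries (12.4% over all genes). Csf1r, the receptor for Csf1, was at 70.7, 289 and 604 CPM in astrocyte libraries and 895, 1302 and 1919 CPM in microglia libraries (-2.12 ± 0.27, adjusted p = 2.51e-11), without overlap. Tgfbr1 differed by -1.81 ± 0.33 (2.70e-06; -2.39 without astrocyte shScrmbl replicate 2), Sirpa by -2.13 ± 0.31 (2.61e-09) and Entpd1, which breaks down extracellular ATP, by -2.66 ± 0.39 (1.11e-08; -3.26 without it). Mertk, which takes up dying cells, differed by -1.23 ± 0.42 (0.0178; -1.92 without it), a call lost without any 1 of 3 libraries (up to 0.120): astrocyte shScrmbl 3, microglia shScrmbl 4 and microglia shXbp1 3. Tgfb2, a ligand of the TGF-beta receptors, Gas6 (44 counts), a ligand of MERTK and AXL, and the growth factor Ptn (101 counts) had rows only in the astrocyte table. Mif, a cytokine that binds CD74, was not called (0.16 ± 0.28, 0.737).

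Mitochondrial respiration stood out on the astrocyte side. Of 72 nuclear genes of oxidative phosphorylation, 57 were called higher in astrocyte libraries and none in microglia libraries, against 12.4% higher in astrocyte libraries over all genes. Their median was 1.35, which lay between 0.998 and 1.38 under the other scalings of the counts. Of the 72, 34 did not overlap, against 4.13% (astrocyte libraries higher) and 3.37% (microglia libraries higher) of all genes. Atp5g1, which encodes subunit c of ATP synthase and has near-identical sister genes, was at 1993, 2658 and 3902 CPM in astrocyte libraries and 257, 497 and 663 CPM in microglia libraries (2.49 ± 0.27, adjusted p = 2.53e-15). Cox6c, of cytochrome oxidase, was at 1567, 2013 and 2391 CPM against 193, 560 and 708 CPM (1.89 ± 0.26, 2.78e-10). Atp5h differed by 1.85 ± 0.26 and Cox4i1 by 1.35 ± 0.25. The list's median was 1.19 in shScrmbl and 1.72 in shXbp1 libraries, where the median of all genes was -0.02 and 0.27. Choroid plexus markers were higher in the same libraries, and their part in this difference was not tested.

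Of 14 glycolytic genes in both tables, 7 (50%, against 12.4% of all genes) were called higher in astrocyte libraries and none in microglia libraries. Their median was 0.67, with 0.31 under plain table totals, 0.41 in shScrmbl libraries and 1.09 in shXbp1 libraries. Without astrocyte shScrmbl replicate 2, 1 member was called higher in microglia libraries. Ldhb, the lactate dehydrogenase subunit that favours lactate use, was at 1952, 2740 and 4009 CPM in astrocyte libraries and 587, 771 and 1292 CPM in microglia libraries (1.88 ± 0.26, adjusted p = 2.58e-10), without overlap. Ldha, the subunit that favours lactate production, was not called (-0.16 ± 0.25, 0.695). Gapdh, Aldoa and Pkm differed by 0.86, 0.96 and 1.01, and their groups overlapped. Pfkp, a phosphofructokinase, was at 81.9, 259 and 460 CPM against 0, 0 and 104 CPM (2.11 ± 0.42, 1.54e-05).

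Cytosolic ribosomal proteins went the other way. Of 74 in both tables, 60 were called higher in microglia libraries and none in astrocyte libraries, against 15% over all genes (median -1.01, between -1.39 and -0.97 under the other scalings of the counts). Rps4x was at 1042, 1480 and 2101 CPM in astrocyte libraries and 2462, 5269 and 13319 CPM in microglia libraries (-2.07 ± 0.25, adjusted p = 6.86e-12). Its groups did not overlap. Of the 74, 18 were free of overlap, against 3.37% (microglia libraries higher) and 4.13% (astrocyte libraries higher) of all genes. Ribosomal protein genes have many processed copies, so their counts are uncertain where reads could match more than 1 of them.

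Actin and integrin genes of phagocyte movement were higher in microglia libraries in 17 of 35 cases (median -1.01), and 1, Ezr, in astrocyte libraries. The shares over all genes were 15% and 12.4%. Tmsb4x, the actin-sequestering thymosin, was at 1417, 2171 and 3388 CPM in astrocyte libraries and 7890, 14085 and 20064 CPM in microglia libraries (-2.51 ± 0.25, adjusted p = 2.20e-17). Lcp1, plastin of leukocytes, differed by -2.22 ± 0.30. Ezr, ezrin, which links actin to microvilli of epithelia and fine astrocyte processes, was at 134, 447 and 788 CPM against 0, 56.6 and 99.4 CPM (2.58 ± 0.39, 1.13e-08). Tmsb4x and Ezr lay on opposite sides without overlap, while Actb did not pass the test (-0.35 ± 0.24, 0.303). Immediate early genes, which respond to stimulation and to tissue dissociation, were called higher in microglia libraries in 9 of 16 cases (median -1.13). The share over all genes was 15%. Nfkbia was at 107, 212 and 324 CPM against 398, 514 and 1097 CPM (-1.51 ± 0.28, 4.06e-06).

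Lipid, iron and redox genes were called in both directions. Scd2, a fatty acid desaturase, was at 358, 512 and 767 CPM in astrocyte libraries and 0, 59.9 and 114 CPM in microglia libraries (2.75 ± 0.36, adjusted p = 6.62e-11). Fdps, of the cholesterol pathway, was at 185, 454 and 537 CPM against 68.5, 99.4 and 160 CPM (1.94 ± 0.35, 1.61e-06). On the microglial side were Apoe, Apoc2 (-2.71 ± 0.38), Fabp5 (-2.03 ± 0.34) and Lpl (-2.14 ± 0.50). Thus 4 of the 10 lipid genes in both tables (Scd2, Fdps, Fdft1 and Clu) were called on the astrocyte side and 4 on the microglial side. The shares over all genes were 12.4% and 15%. The call of Fdft1 (1.35 ± 0.45, 0.0153) was lost without astrocyte shScrmbl replicate 2 or microglia shScrmbl replicate 2 (0.115 and 0.0837). Of 26 iron, copper and redox genes, 8 were called higher in astrocyte libraries and 11 in microglia libraries (30.8% and 42.3%, against 12.4% and 15% of all genes). Antioxidant enzymes did not share a direction. Sod1 was at 138, 654 and 813 CPM against 0, 114 and 224 CPM (2.12 ± 0.37, 2.51e-06), Gpx4 differed by 1.72 ± 0.33 and Gstm5 by 2.60 ± 0.40. Txn1, thioredoxin, was higher in microglia libraries (-0.93 ± 0.25, 0.00227), and Prdx1, a peroxiredoxin, was not called (-0.16 ± 0.25, 0.691). Cyba, an oxidase subunit, differed by -2.63 ± 0.35 (-3.41 without astrocyte shScrmbl replicate 2) and Ftl1, ferritin light chain, by -1.96 ± 0.25. Ftl1 was at 4095, 7981 and 16784 CPM against 14721, 28373 and 61534 CPM, and it has many near-identical copies.

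Of 13 extracellular and secreted proteins, 5 were called higher in astrocyte libraries (Dbi, Sparcl1, App, Aplp2 and Lgals1; 38.5%, against 12.4% of all genes) and 3 in microglia libraries (Lgals3, Itm2b and Fn1; 23.1%, against 15%). App, the amyloid precursor protein, was at 155, 394 and 561 CPM in astrocyte libraries and 0, 123 and 156 CPM in microglia libraries (1.57 ± 0.36, adjusted p = 0.000236). The galectins parted: Lgals1 differed by 0.81 ± 0.27 (0.0132) and Lgals3 by -1.91 ± 0.33 (1.53e-06). Aplp2 lost its call without any 1 of 5 libraries (up to 0.191) and Fn1 (-1.19 ± 0.39, 0.0142) without astrocyte shScrmbl replicate 3 (0.0556) or microglia shScrmbl replicate 2 (-0.55, 0.419).

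**Figure D4:**
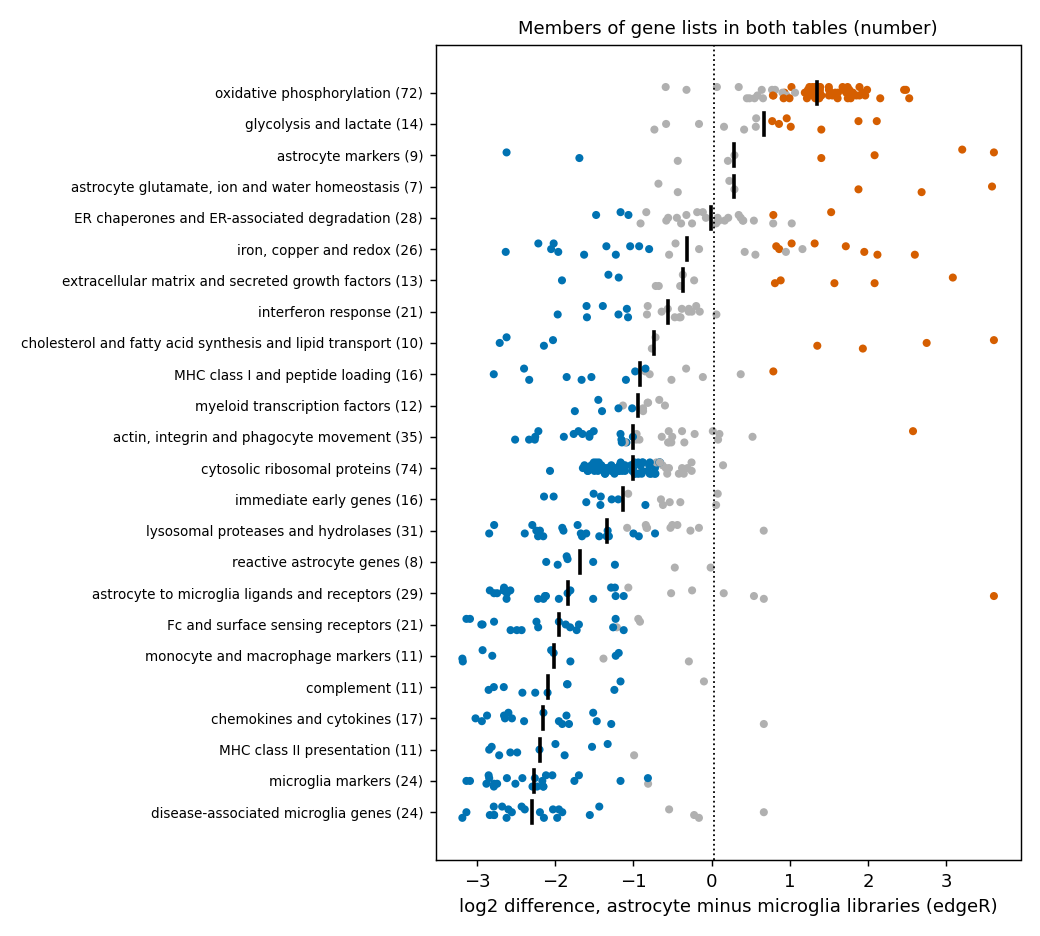
Log2 difference (x axis, astrocyte minus microglia) of every list member in both tables, 1 point per gene, for 24 lists with the number of members in brackets; orange and blue points were called higher in astrocyte and microglia libraries, grey points were not called, bars are list medians and the dotted line is the median of all genes. Oxidative phosphorylation lies to the right with a median of 1.35 and disease-associated microglia genes to the left with a median of -2.29.

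Xbp1, the transcription factor aimed at by the hairpin, was low in both cell types: 26.7, 55.6 and 106 CPM in astrocyte libraries and 0, 49.7 and 104 CPM in microglia libraries (0.35 ± 0.51, adjusted p = 0.679). These are 50 and 18 counts in all, so a difference of this size was not detectable at this depth. In astrocyte libraries Xbp1 was at 26.7, 73.4, 106 and 38.3 CPM with shScrmbl and at 46.3, 64.9, 40.9 and 97.6 CPM with shXbp1. These ranges overlapped, so the level of the targeted gene does not show the knockdown here, and shXbp1 names the virus given. Chaperones of the endoplasmic reticulum (ER) and genes of ER-associated degradation, a class XBP1 is known to control, had a median of -0.01. The median was -0.14 in shScrmbl and 0.60 in shXbp1 libraries, -0.39 with plain table totals, and 0.10 without astrocyte shScrmbl replicate 2; the difference between viruses was not tested for the list. Of 28 in both tables, 2 (7.14%, against 12.4% of all genes) were called higher in astrocyte libraries (Canx and Dnajc3) and 3 (10.7%, against 15%) in microglia libraries (Derl2, Ssr4 and Ssr2). Hspa5, the chaperone BiP, was at 652, 1340 and 2641 CPM against 731, 1343 and 1543 CPM (0.06 ± 0.25, 0.903), and Hsp90b1 gave 0.54 ± 0.25 (0.0965). Their groups overlapped. Dnajc3, a BiP co-chaperone, was at 121, 344 and 601 CPM against 64.3, 87.2 and 199 CPM (1.53 ± 0.38, 0.000622). The calls of Derl2 (-1.48 ± 0.50, 0.0158) and Ssr2 (-1.06 ± 0.38, 0.0263) were lost without microglia shXbp1 replicate 3 (0.129 for Derl2) and, for Ssr2, without any 1 of 4 libraries (up to 0.102).

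Whether the difference between cell types depended on the virus was tested with an interaction term. No gene was called (0.0% of 2909), by edgeR with Benjamini-Hochberg adjustment, by limma or by DESeq2. At an unadjusted p under 0.05 there were 134 genes by edgeR, 226 by limma and 55 by DESeq2. The number of calls stayed at 0 in each fit that left out 1 library. On simulated counts of the same depth the test of cell type itself found 29.2% of genes changed 2-fold, 91% of those changed 4-fold and 99.5% of those changed 8-fold, with the interaction not simulated.

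Each side's leading genes had counts in the other side's libraries as well, which the choice of genes ensured. Only genes with rows in both tables were tested, and every row held at least 17 counts (astrocyte table) or 15 counts (microglia table). Markers with a row in 1 table are left out of the percentages below, among them 11 choroid plexus and ependyma markers. Choroid plexus and ependyma markers in the microglia libraries were at 10.4% to 16.1% of their mean level in astrocyte libraries, with a median of 11.1% over the 4. Microglia markers in the astrocyte libraries were at 10.7% to 51.6% of their level in microglia libraries, with a median of 15.9% over the 24. The astrocyte means include shScrmbl replicate 2, the highest astrocyte library for Tyrobp (755 CPM), Fcer1g (1342 CPM) and Fcgr3 (488 CPM). The astrocyte medians of these genes were 251, 327 and 128 CPM. Tyrobp was at 10.7%, Fcer1g at 10.8% and Fcgr3 at 10.6%, beside Ttr at 11.5%, Folr1 at 10.4% and Kcnj13 at 10.7% in the opposite direction. Pcp4l1 at 5.99%, Tubb4b at 6.49% and Cab39l at 6.92% were lower, and 1 microglia library held no count of Pcp4l1. The source of this lower level was not tested, and the folds given here include it.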

How the data were processed

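Astrocyte and microglia values came as separate tables, in which the authors deposited normalized signal values whose scaling is not described. Per the submitters' processing notes, BWA 0.7.10, limma 3.34.1 and build mm10 were used; roles, counter, strand, filter and scaling are not given in the sources used here. Each column divided by its smallest value above 0 gave whole numbers, to a tolerance of 0.01, for 100% of the 45664 astrocyte and 18589 microglia values above 0. Names turned to dates or numbers (15 and 5 rows) were left out. The 15 libraries were normalized together by TMM and fitted with edgeR 4.0.16 (R 4.3.3; quasi-likelihood, robust, at least 10 counts over the libraries, virus as covariate, no replicate block). Other settings used limma 3.58.1 and DESeq2 1.42.0. SE is the log2 difference over the square root of F. Genes named were Xbp1, the 12 of smallest p per direction and up to 6 members per list by counts; Tmem119, P2ry12, Irf1, Cd44, Cd274, Dnajc3, Derl2, Ssr2, Ssr4, Fdft1, Fli1, Sall1, C4b, Tnf, Tlr2, Fcgr1, Trem2, C3ar1, Csf1, Axl, Mertk, Tgfbr1, Sirpa, Entpd1, Lpl, App, Fn1, Sod1, Gpx4, Gstm5, Cyba, Pfkp, Ezr, Cd74, Timp2, Malat1, Hsp90aa1 and genes with a row in 1 table that are not among the first 6 of a list were chosen after their values were seen. Members and lists were chosen with earlier results of these data known. Some genes are not reported here. A planned permutation test of summed marker shares is not given. Coordinates are GENCODE M21 on GRCm38 and promoters RefSeq on GRCm38.p6. The test was tested on 5 sets of simulated data, in which 4.09% of calls were false. No 2 replicate libraries were alike within sampling noise (chi-square per degree of freedom 1.47 to 5.63 over 21 pairs).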

Additional observations from a re-analysis of the deposited data

Results flagged for a closer look

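A sample far from the other 3 of its group was found in 13 of 108 groups examined, where chance gives about 1 in 20. Microglia shScrmbl replicate 1 gave 5 of these: it had the highest Ttr (55620 CPM, others 19017 to 23818), and the highest shares of choroid plexus and ependyma (6.40%), oligodendrocyte (0.773%) and endothelial markers (0.0678%), and the lowest share of neutrophil markers (0.0339%). Nearly all counts of the choroid plexus list were Ttr, so its flags for Ttr and for that list rest on the same counts. Astrocyte shScrmbl replicate 2 had the most counts (302003), the highest Ctss (4696 CPM, others 909 to 1265) and the highest C1qc (591 CPM, others 187 to 230.0). Astrocyte shScrmbl replicate 1 had the highest Ttr (359649 CPM), the lowest Apoe (2245 CPM, others 4409 to 4514) and the lowest share of astrocyte markers (0.765%). Astrocyte shXbp1 replicate 2 had the highest Tuba1a (2255 CPM), and microglia shScrmbl replicate 4 the highest share of erythroid and mast cell markers (0.235%).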

How the results depend on the processing

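Calls numbered 796. They were 508 by limma on log2(signal + 1), 395 in shScrmbl libraries alone and 387 of 2249 genes after thinning to 9939 counts. Genes higher in astrocyte libraries (361) became 141 on log2(signal + 1), 214 on log2(signal + 10), 194 with table totals, 137 in shScrmbl libraries alone and 155 after thinning. Genes higher in microglia libraries (435) became 258 in shScrmbl and 249 in shXbp1 libraries alone and 232 after thinning. The share of calls higher in astrocyte libraries was 45.4%, and 24.0% with table totals, 27.8% on log2(signal + 1), 31.4% on log2(signal + 10), 34.7% in shScrmbl and 58.7% in shXbp1 libraries alone. Leaving out 1 library gave 635 (without microglia shXbp1 replicate 3) to 901 calls (without astrocyte shScrmbl replicate 2). No gene called with all libraries was called in the opposite direction in another setting. Of 146 called genes examined singly, 54 lost the call in some of 25 settings, 17 of them when 1 library was left out, and 1 changed sign: Ccl2, at 0.84 in shXbp1 libraries alone. A replicate block left 659 calls. Same-numbered libraries correlated between -0.189 and 0.119, and 4 of 7 astrocyte libraries correlated best with their own number. These 4 were all the shScrmbl astrocyte libraries (0.072 to 0.119), and no shXbp1 library with a partner did so. The check does not settle whether equal numbers are pairs. The labels do not state pairs, and the main fit used no block. Genes not called changed sign: on log2(signal + 1) Glul (-0.0367), Hspa5 (-0.43), Mif (-0.19), Ttyh1 (-0.29), Malat1 (-0.19) and C4b (1.41); with table totals Glul (-0.0606), Hspa5 (-0.38), Mif (-0.22), Ttyh1 (-0.22) and Malat1 (-0.16); with upper quartile factors Hspa5 (-0.0418); by limma on log2 CPM C4b (0.43); with the block C4b (0.052); in shScrmbl libraries alone Hspa5 (-0.25) and Mif (-0.32); in shXbp1 libraries alone Actb (0.13), Ifitm3 (0.66), Ldha (0.36) and C4b (1.35). Without 1 library Hspa5 ranged from -0.0431 to 0.23, Ldha from -0.30 to 0.0143, Ttyh1 from -0.0519 to 0.36 and C4b from -0.22 to 0.18. The cause was not tested. Depth limits genes of low counts: 2-fold differences were mostly missed on simulated data.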

Other observations

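Some genes outside the comparisons above were high in both cell types. Malat1, a long nuclear RNA, was at 46613, 72590 and 117751 CPM in astrocyte libraries and 50334, 60786 and 72019 CPM in microglia libraries (0.28 ± 0.24, adjusted p = 0.430 by edgeR). The groups overlapped. Hsp90aa1, a cytosolic heat shock protein, was at 2464, 6474 and 10660 CPM against 1126, 1439 and 2454 CPM (1.84 ± 0.26, 1.08e-09), and its lowest astrocyte library lay just above its highest microglia library. Among genes with rows only in the astrocyte table, Stk39 (612 counts), Nedd4 (528 counts) and F5 (364 counts) were above 0 in 8 of 8 libraries. Among genes with rows only in the microglia table, the mast cell and basophil protease Prss34 (82 counts, 7 of 7 libraries), Ms4a6d (58 counts) and Cd86 (39 counts), a co-stimulatory ligand for T cells, had the most counts or were near the top.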
